A study of Homo sapiens with 3 samples.

Results

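The cells described here are matrix-rich fibroblast-like cells that carry COL15A1, the core protein of collagen XV, together with DCN, the small proteoglycan decorin. They were chosen by measured values: a barcode with 1000 or more UMIs (unique molecular identifiers, counts of captured transcripts), 500 or more genes, no more than 20% of UMIs from mitochondrial genes, at least 2 COL15A1 UMIs and at least 5 DCN UMIs, with a UMI in fewer than 3 of 7 endothelial genes (PECAM1, CDH5, CLDN5, TIE1, KDR, CLEC14A and CD93). In all, 456 of 23805 kept barcodes met this rule. They were 434 of 8858 in the library with no induction, 2 of 5303 in that with 15 days of induction and 20 of 9644 in that with 45 days.

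The libraries come from blood vessel organoids grown from the human embryonic stem cell line H1, in which a doxycycline-inducible NEUROD1-P2A-GFP cassette had been placed with a PiggyBac transposon. NEUROD1 drives neuronal differentiation. All organoids, uninduced ones included, carried the cassette, received BDNF and NT-3 from day 15 and were taken at day 45. Induction used 1 µg/ml doxycycline, and where the 15 days fell within the 45 is not stated in the labels. A library is a pool of 5 to 6 organoids, made into single cells with papain at 20 U/ml, so each group is 1 library and no test between groups can be made.

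Fibroblasts and their embryonic mesenchymal precursors build the interstitial matrix. Collagens I, III and V form fibrils, small leucine-rich proteoglycans such as decorin, lumican and fibromodulin bind those fibrils and set their spacing, and collagen XV sits where basement membranes meet the interstitial fibrils. Collagen chains need hydroxylation, folding and crosslinking by dedicated enzymes before and after secretion. COL15A1 is also made by endothelial cells, for which reason the rule leaves out cells with several endothelial transcripts.

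Of COL15A1, DCN, FMOD, LUM and COL1A1, only DCN and LUM share a chromosome (GENCODE 29, GRCh38). COL15A1 spans chr9:98943179-99070792 on the plus strand. DCN, chr12:91140484-91183123, and LUM, chr12:91102629-91111831, are neighbours on the minus strand. FMOD lies at chr1:203340628-203351758 and COL1A1 at chr17:50183289-50201632, both on the minus strand. DLK1, a gene that comes up throughout, spans chr14:100725705-100738224 on the plus strand.

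The files held 10232, 5962 and 10765 barcodes and 59879923, 49488425 and 64171327 UMIs for no induction, 15 days and 45 days. Between libraries 13 to 33 barcodes were shared, and 2 members have a barcode that also occurs in another library. The uninduced members were deep: their median was 12779.5 UMIs (1012 to 39592) and 3157 genes, against 5179 UMIs and 1831 genes in the other 8424 kept uninduced cells. The median mitochondrial share was 4.67% in members and 4.63% in the others. A score from simulated doublets, used here as a mark and not as a filter, picked 62 of the 434 members (14.3%) and 7.87% of the other uninduced cells.

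**Figure D1:**
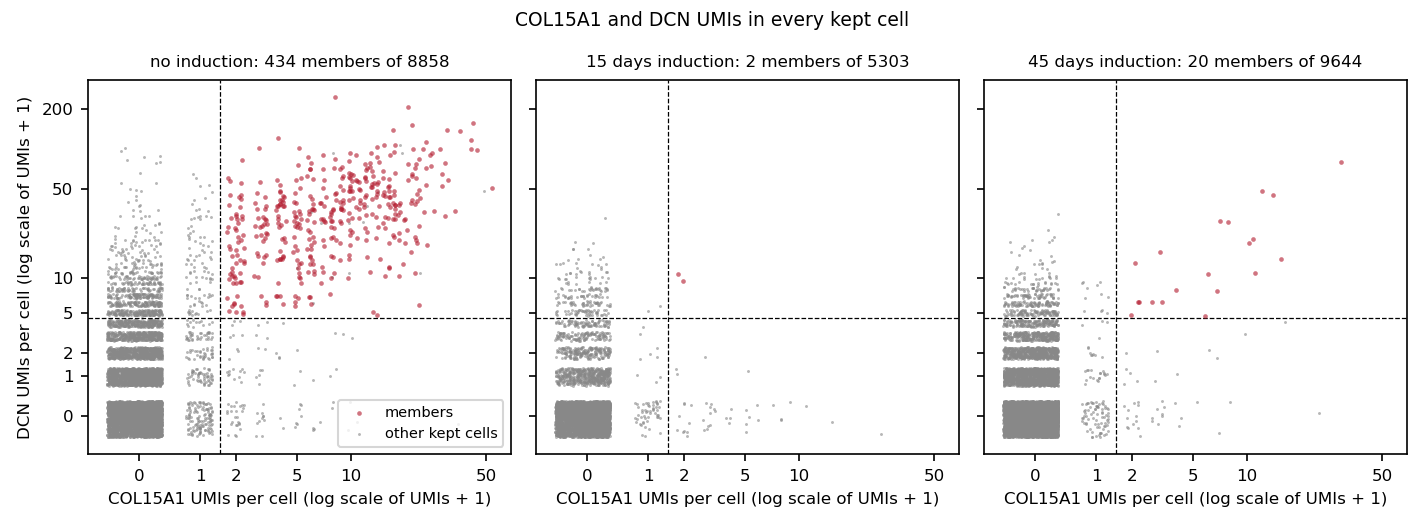
Each point is a kept cell, placed by its COL15A1 UMIs (x) and DCN UMIs (y) on a log scale with a small random shift; dashed lines mark the limits of 2 COL15A1 and 5 DCN UMIs, and red points are members. The red points fill the upper right of the uninduced panel (434 cells) and are 2 and 20 cells in the panels for 15 and 45 days.

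Members had a median of 8 COL15A1 UMIs (up to 53) and 31.5 DCN UMIs (up to 248). These values chose the cells and are given as a description. Just inside the COL15A1 limit were 57 uninduced members with 2 UMIs, and just outside it 98 cells with 1 UMI and enough DCN. At the DCN limit 6 members had 5 UMIs and 6 cells with enough COL15A1 had 4, so few cells lie there, while 42 cells with enough COL15A1 that passed the endothelial condition had 3 DCN UMIs or fewer. The endothelial condition alone took out 15 cells, and 206 members had a UMI in 1 or 2 of the 7 genes.

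The label names FMOD, LUM and COL1A1 beside the rule's pair, and all 3 were high in members. Levels are given as CPM, the UMIs of a gene summed over a group of cells, per 1000000 UMIs of that group, with exact 95% intervals that cover counting error only. FMOD, the proteoglycan fibromodulin, stood at 267 CPM (254 to 280) in members, against 5.09 CPM (4.50 to 5.75) in other uninduced cells. COL1A1, the main chain of collagen I, was at 8130 CPM (8058 to 8203) in members and 908 CPM (900 to 916) in the others. LUM, lumican, was at 3173 CPM in members and 832 CPM in the others. Members were chosen with earlier results of these data known, so these levels are a description and no check of the label. General fibroblast genes were not all higher. Of 10 such genes, PDPN and LUM among them, 5 were at least 2-fold higher and 1, TCF4, lower than in the others, and 3 were higher and the same 1 lower than in uninduced cells with 5 or more DCN UMIs and no COL15A1 UMI. PDGFRA, the receptor that marks many fibroblasts, was at 126 CPM in members and 128 CPM in the others, and VIM, the intermediate filament vimentin, was at 5187 CPM in members and 8355 CPM in the others.

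Of all UMIs in kept uninduced cells, members held 10.2%. They held 85.6% of those of FMOD, 70.5% of those of PDPN, 69.8% of those of DLK1, 54.0% of those of MGP, 50.4% of those of COL1A1 and 30.2% of those of LUM. For COL15A1 and DCN, which the rule uses, the shares were 81.6% and 50.9%. The FMOD share was thus above that of COL15A1, the shares of PDPN and DLK1 were below it, and LUM had the lowest share of the genes given.

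For comparison, uninduced cells were taken in a wider and a nearer set. The wider one is all other 8424 kept cells. The nearer one is the 774 cells that have 5 or more DCN UMIs and pass the endothelial condition but have no COL15A1 UMI (median 6281 UMIs), called DCN-high cells from here on. With 1 library there is no replicate spread, so genes are counted by size alone, on log2 ratios with 5 CPM added to each side, and the rule's own genes are left out. Folds printed beside CPM values are plain ratios.

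Against the other uninduced cells, members were at least 4-fold higher in 69 genes and at least 4-fold lower in 51, of 2828 genes at 50 CPM or more (2.44% and 1.8%). Against DCN-high cells, members were at least 2-fold higher in 189 genes and at least 2-fold lower in 148, of 2798 genes (6.75% and 5.29%). FMOD led both comparisons. It was 52.4-fold higher than in the other cells (46.0 to 59.9) and 53.0-fold higher than in DCN-high cells (37.2 to 78.2).

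DLK1, a membrane protein of the Notch ligand family found on embryonic and progenitor cells, was at 7151 CPM (7083 to 7220) in members. It was at 605 CPM in DCN-high cells and 351 CPM in the others. Cell by cell, the quartiles of members were 1794 and 10600 CPM, and 96.8% had a DLK1 UMI. MGP, matrix Gla protein, an inhibitor of calcification, was at 1397 CPM in members, 313 CPM in DCN-high cells and 135 CPM in the others. PDPN, podoplanin, a surface glycoprotein, was at 229 CPM in members, 24.0 CPM in DCN-high cells and 10.8 CPM in the others.

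Other genes high in members were low in both comparison sets. GLIPR1, a secreted and membrane protein of the CAP family, was at 270 CPM in members, 13.2 CPM in DCN-high cells and 15.9 CPM in the others. RGS4, a regulator of G protein signalling, was at 265 CPM in members, 17.2 CPM in DCN-high cells and 17.6 CPM in the others. EGFL6, an extracellular matrix protein with EGF repeats, was at 219 CPM in members, 24.4 CPM in DCN-high cells and 12.8 CPM in the others. PTGDS, prostaglandin D synthase, was at 166 CPM in members, and IGFL2, a secreted protein of the IGF-like family, at 140 CPM, against 13.3 and 3.74 CPM in DCN-high cells and 8.42 and 6.29 CPM in the others. Between 34.3% (PTGDS) and 62.9% (GLIPR1) of members had a UMI of each of these 5 genes, so no one of them marks every member.

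CLU, the secreted chaperone clusterin, was at 246 CPM in members, 24.4 CPM in DCN-high cells and 22.7 CPM in the others. WNT5B, a noncanonical WNT ligand, was at 126 CPM in members, 10.7 CPM in DCN-high cells and 11.3 CPM in the others. AMIGO2, an adhesion protein, and SPOCK1, the proteoglycan testican, were at 109 and 84.9 CPM in members, 5.36 and 5.20 CPM in DCN-high cells and 5.31 and 5.02 CPM in the others. NDUFA4L2, a mitochondrial protein that is known as a hypoxia target, was at 367 CPM in members, 29.6 CPM in DCN-high cells and 42.3 CPM in the others. Of the hypoxia and glycolysis list, which does not hold it, 0 of 16 measured genes were 2-fold higher or lower than in the others. Against DCN-high cells 1 of 15 was higher and 0 lower. MMP9, gelatinase B, was at 185 CPM in members, 23.9 CPM in DCN-high cells and 44.3 CPM in the others, yet 7.37% of members had any UMI of it.

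**Figure D2:**
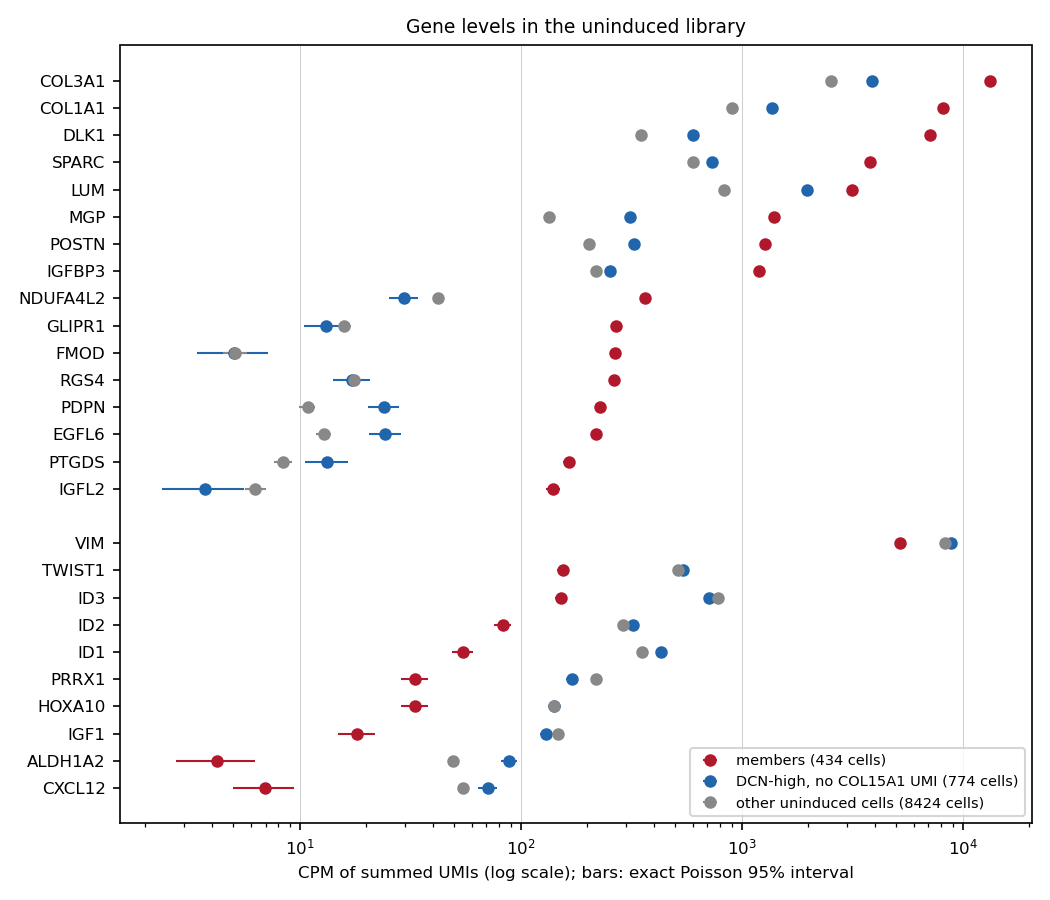
Points give CPM of summed UMIs on a log axis in members, DCN-high cells without a COL15A1 UMI and other uninduced cells, with exact Poisson 95% intervals (counting error only, often within the point). In the upper block members lie right of both comparison sets, with FMOD at 267 against 5.04 and 5.09 CPM; in the lower block they lie left of both, with ID1 at 54.8 against 431 and 356 CPM.

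Because members are deep, shares of cells were compared after thinning each cell to 2000 UMIs, which left out 2 members, 2 DCN-high cells and 342 of the other cells. DLK1 then had a UMI in 91.7% of members (88.6 to 94.1), 21.5% of DCN-high cells and 16.8% of the others. In cells that should lack fibroblast transcripts the share was 10.5% (cells with 3 or more of the 7 endothelial genes, median 7739.5 UMIs) and 14.3% (cells with 3 or more macrophage markers, median 5001 UMIs), read here as the background. FMOD had a UMI in 29.9% of members (25.6 to 34.4) and 0.518% of DCN-high cells, with 0.986% in the endothelial cells. The FMOD share of DCN-high cells was thus not above that background. Unthinned, FMOD had a UMI in 59.0% of members and 2.33% of DCN-high cells.

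The fibril-forming collagens were higher as a group. Of 8 measured at 10 CPM or more, 6 were at least 2-fold higher than in other uninduced cells and 0 lower, with a median log2 ratio of 2.19. Over all 9025 genes at that level 4.11% were 2-fold higher and 7.08% lower, with a median of -0.20. Against DCN-high cells it was again 6 higher and 0 lower, with a median of 1.71, where over all 8825 genes 3.97% were higher and 5.62% lower, with a median of -0.16. COL3A1 was at 13286 CPM in members, 3879 CPM in DCN-high cells and 2546 CPM in the others. COL1A2, the second chain of collagen I, was at 7010 CPM in members, 1870 CPM in DCN-high cells and 1271 CPM in the others. COL5A1, which starts collagen I fibrils, was at 901 CPM in members, 211 CPM in DCN-high cells and 156 CPM in the others.

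All 4 type VI collagens, which form microfilaments around cells, were 2-fold higher than in the other cells, and 3 of 4 against DCN-high cells. COL6A3 was at 1241 CPM in members, 383 CPM in DCN-high cells and 327 CPM in the others. The basement membrane list did not move as one: 2 of 13 genes were higher and 2 lower than in the other cells. LAMA4, a laminin chain of vessel walls, was at 9.15 CPM in members, 42.2 CPM in DCN-high cells and 58.7 CPM in the others. Collagen XII (COL12A1), a fibril-associated collagen, was lower in members, at 10.3 CPM against 26.8 CPM in DCN-high cells and 23.2 CPM in the others, while COL14A1, its relative, was at 121 CPM against 68.4 and 35.8 CPM.

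The machinery that makes collagen was higher together with it. Of 19 measured enzymes and chaperones, 11 were 2-fold higher and 0 lower than in the other cells (median log2 1.04), and 7 were higher and 0 lower against DCN-high cells (median 0.90). P4HA2, a prolyl hydroxylase subunit, was at 293 CPM in members, 67.3 CPM in DCN-high cells and 64.0 CPM in the others. PLOD2, which hydroxylates lysines used for crosslinks, was at 204 CPM in members, 58.2 CPM in DCN-high cells and 61.5 CPM in the others. SERPINH1, the collagen chaperone HSP47, was at 741 CPM in members, 299 CPM in DCN-high cells and 292 CPM in the others. CREB3L1, a transcription factor that drives collagen secretion genes, was at 149 CPM in members, 33.2 CPM in DCN-high cells and 27.0 CPM in the others. Of the crosslinking enzymes, LOX was at 145 CPM and LOXL1 at 247 CPM in members, against 33.8 and 68.2 CPM in DCN-high cells and 24.7 and 50.01 CPM in the others, and LOXL2 was at 75.3 CPM against 53.0 and 63.0 CPM.

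Proteoglycans and matricellular proteins were mixed. Of 6 measured leucine-rich proteoglycans other than DCN, 3 were 2-fold higher and 1 lower than in the other cells: FMOD, LUM and PRELP on one side and ASPN, asporin, on the other. ASPN was at 20.7 CPM in members, 84.7 CPM in DCN-high cells and 51.0 CPM in the others. BGN, biglycan, was at 226 CPM in members, 134 CPM in DCN-high cells and 131 CPM in the others. SPARC, a collagen-binding matricellular protein, was at 3817 CPM in members, 733 CPM in DCN-high cells and 605 CPM in the others. POSTN, periostin, which aids collagen crosslinking, was at 1281 CPM in members, 326 CPM in DCN-high cells and 203 CPM in the others, whereas THBS1, thrombospondin 1, was lower, at 22.7 CPM against 51.0 and 56.0 CPM.

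**Figure D3:**
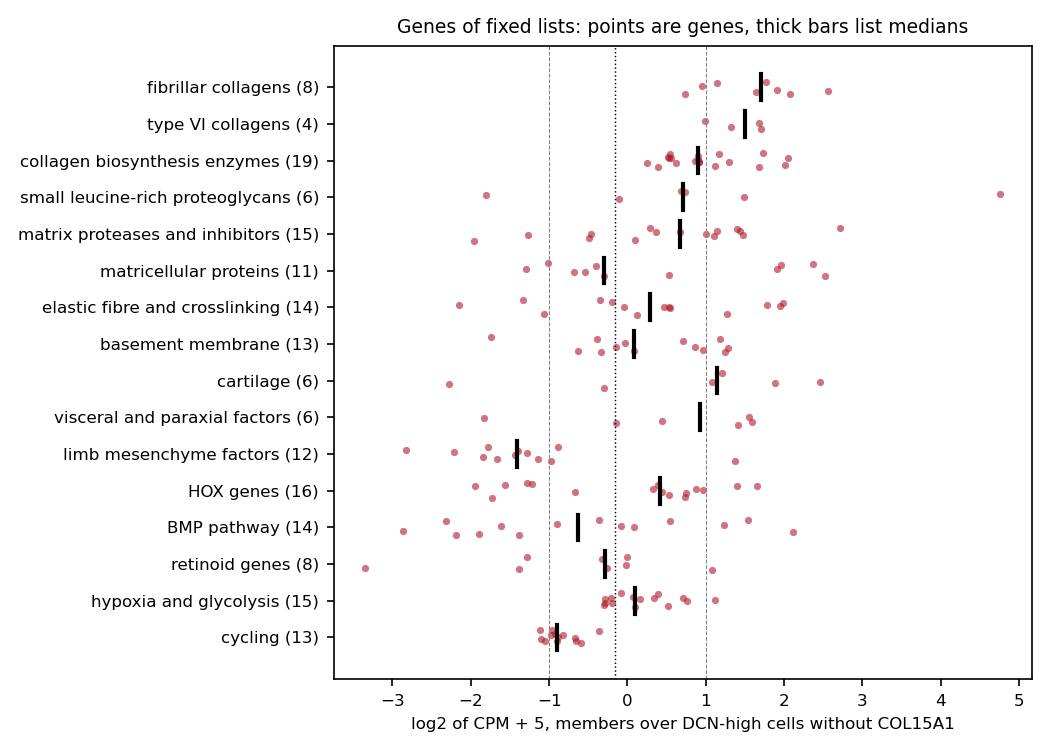
Each point is a gene at 10 CPM or more, placed by the log2 ratio of members over DCN-high cells (5 CPM added); thick bars are list medians, the dotted line is the median of all genes (-0.16), dashed lines mark 2-fold, and numbers in brackets are genes measured. Fibrillar collagens lie to the right (median 1.71) and limb mesenchyme factors to the left (median -1.41).

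Transcription factors of limb mesenchyme were lower in members. Of 14 measured, 12 were 2-fold lower and 1 higher than in the other cells (median log2 -1.51), and 9 of 12 were lower and 1 higher against DCN-high cells (median -1.41). PRRX1, a homeobox factor of limb and lateral mesoderm, was at 33.1 CPM in members, 171 CPM in DCN-high cells and 219 CPM in the others. TWIST1, a helix-loop-helix factor of mesenchyme, was at 155 CPM in members, 544 CPM in DCN-high cells and 513 CPM in the others. SHOX2, a factor of proximal limb growth, was at 4.41 CPM in members, 61.9 CPM in DCN-high cells and 45.8 CPM in the others. The exception was PITX1, the hindlimb factor, at 510 CPM in members, 194 CPM in DCN-high cells and 199 CPM in the others.

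Factors of visceral and paraxial mesoderm were mixed: 3 of 9 were 2-fold higher and 4 lower than in the other cells (median log2 -0.23), and 3 of 6 were higher and 1 lower than in DCN-high cells (median 0.93). HAND1 was at 99.8 CPM in members, 30.9 CPM in DCN-high cells and 18.4 CPM in the others, and HAND2, its paralog, at 143 CPM against 50.7 and 55.5 CPM. GATA6, a zinc finger factor of heart and endoderm, was at 56.4 CPM in members, 15.4 CPM in DCN-high cells and 11.7 CPM in the others. MEOX2, a paraxial mesoderm factor, was at 1.70 CPM in members, 18.9 CPM in DCN-high cells and 26.4 CPM in the others. Among HOX genes, which record position along the body, HOXA10 was at 33.2 CPM in members, 142 CPM in DCN-high cells and 141 CPM in the others. HOXC8 stood the other way, at 31.0 CPM in members, 6.50 CPM in DCN-high cells and 4.34 CPM in the others. Of 19 measured HOX genes 3 were higher and 7 lower than in the other cells, with a median log2 ratio of 0.13.

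The BMP pathway was mixed: 3 of 14 measured genes were 2-fold higher and 6 lower than in the other cells (median log2 -0.52). Against DCN-high cells it was again 3 of 14 higher and 6 lower (median -0.63). The ID genes were lower in members, while BAMBI and FST were higher. ID1, an inhibitor of helix-loop-helix factors and a common BMP target, was at 54.8 CPM (48.9 to 61.1) in members, 431 CPM in DCN-high cells and 356 CPM in the others. ID3 was at 152 CPM in members, 711 CPM in DCN-high cells and 783 CPM in the others, and ID2 at 82.9 CPM against 321 and 290 CPM. ID4 was at 8.14 CPM against 60.3 and 52.0 CPM. BAMBI, a decoy receptor, was at 384 CPM in members, 160 CPM in DCN-high cells and 106 CPM in the others, and FST, follistatin, which binds activins and BMPs, at 226 CPM against 48.6 and 32.5 CPM. After thinning, ID1 had a UMI in 8.10% of members (5.71 to 11.1) and 44.0% of DCN-high cells, with 20.9% in the endothelial cells and 17.1% in the macrophage-marker cells.

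Against the other cells, 4 of 12 WNT antagonists and R-spondins were 2-fold higher and 3 lower, 2 of 9 IGF genes higher and 2 lower, 0 of 9 retinoid genes higher and 3 lower, and 3 of 14 genes of the TGF-beta and myofibroblast response higher and 0 lower. DKK1 and DKK2, secreted WNT antagonists, were at 265 and 224 CPM in members, 69.2 and 64.2 CPM in DCN-high cells and 61.9 and 44.9 CPM in the others, while SFRP2, another antagonist, was at 35.9 CPM against 137 and 111 CPM. IGFBP3, which binds insulin-like growth factors, was at 1202 CPM in members, 254 CPM in DCN-high cells and 220 CPM in the others, but IGFBP2 was at 106 CPM against 548 and 615 CPM, and the ligand IGF1 at 18.1 CPM against 131 and 147 CPM. Of the list of FGF ligands and feedback genes, 1 of 9 measured was 2-fold higher and 3 lower than in the others. Against DCN-high cells 1 of 8 was higher and 2 lower. FGFR2 was at 121 CPM in members, 39.6 CPM in DCN-high cells and 23.9 CPM in the others. ALDH1A2, which makes retinoic acid in embryonic mesoderm, was at 4.24 CPM in members, 88.9 CPM in DCN-high cells and 49.5 CPM in the others. CXCL12, a chemokine of stroma, was at 6.95 CPM in members, 70.8 CPM in DCN-high cells and 55.0 CPM in the others.

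Markers of tendon and bone were low, and those of adult adventitial fibroblasts and of cartilage were mixed. Of the adventitial and universal fibroblast list, 1 of 8 measured genes was 2-fold higher and 1 lower than in the other cells (median log2 0.020). Against DCN-high cells 1 of 7 was higher and 2 were lower (median 0.33). PI16, DPT and CLEC3B, genes of adult adventitial fibroblasts, were near the floor, at 0.170, 1.19 and 0 CPM in members, where 3 UMIs would be 0.509 CPM. SCX and TNMD, tendon genes, were at 3.73 and 0.170 CPM in members, against 19.0 and 5.85 CPM in DCN-high cells and 19.3 and 4.96 CPM in the others. Of the cartilage list, 3 of 8 genes were 2-fold higher and 1 lower than in the other cells, and 4 of 6 were higher and 1 lower than in DCN-high cells. The 12 cartilage genes summed to 336 CPM in members, 154 CPM in DCN-high cells and 141 CPM in the others. SOX6 and HAPLN1 were at 65.1 and 114 CPM in members against 7.80 and 27.1 CPM in DCN-high cells and 11.4 and 20.6 CPM in the others, and COL9A3, a chain of collagen IX, was at 121 CPM against 54.4 and 39.96 CPM. SOX9, ACAN and COL2A1, which define cartilage, were at 4.07, 0.339 and 3.05 CPM in members. The bone genes SP7 and IBSP were at 0 CPM. No adult fibroblast, tendon, cartilage or bone name is given to these cells.

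Markers of other cell types were also measured in members. The 10 endothelial genes, 7 of them in the rule, summed to 94.4 CPM in members, 151 CPM in DCN-high cells and 628 CPM in the others, and 14 members had 3 or more of the 10. KDR, at 48.3 CPM, made up much of the sum in members; PECAM1 and CDH5 were at 2.20 and 1.02 CPM. The 10 macrophage markers summed to 26.3 CPM in members, 53.9 CPM in DCN-high cells and 186 CPM in the others, with CD14 at 0 in members. The 12 mural markers summed to 251 CPM in members, 256 CPM in DCN-high cells and 376 CPM in the others, and no marker of that list was at 0.

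The 10 epithelial markers summed to 1306 CPM in members, 1788 CPM in DCN-high cells and 1272 CPM in the others, and 52.3%, 21.4% and 11.9% of these cells had 3 or more of them, unthinned and at median depths of 12779.5, 6281 and 5179 UMIs. In members the sum came from KRT8, KRT18 and KRT19, keratins of simple epithelium, at 372, 374 and 515 CPM. EPCAM was at 12.04 CPM and KRT5 at 0.509 CPM in members, against 106 and 14.9 CPM in DCN-high cells and 84.1 and 11.9 CPM in the others. Of 9 measured epithelial markers, 0 were 2-fold higher and 5 lower than in the others. Against DCN-high cells 0 were higher and 6 lower. In 1 alternative setting, with DCN-high cells weighted to the depth of members, the log2 ratio of KRT19 over them was -0.77. In an added setting, DCN-high cells with 3 or more epithelial markers were left out, while members with as many were kept. The log2 ratios of GABRP, KRT17, WNT6 and SLN then turned to 1.52, 0.92, 1.09 and 0.52. They were -3.09, -3.12, -2.91 and -3.10 with all DCN-high cells. GABRP is among the 10 markers and the cut spared members, so these turns follow in part from the cut. ID1, PRRX1 and ALDH1A2 did not turn.

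The 10 lowest genes against the other cells were of several kinds. GJA4, ADGRL4, PLVAP and ESAM, genes of vessels, were at 1.86, 1.02, 1.70 and 2.88 CPM in members and 61.1, 52.8, 58.4 and 59.7 CPM in the others. DCN-high cells were also low in them, at 5.36, 1.95, 3.74 and 4.39 CPM. EMCN, an endothelial sialomucin, was at 11.02 CPM in members and 129 CPM in the others, and MCAM, an adhesion molecule of vessel walls, at 5.93 and 76.6 CPM. In DCN-high cells EMCN and MCAM were at 104 and 29.2 CPM. APOA2, a liver apolipoprotein, was at 4.92 CPM in members and 81.8 CPM in the others, and SPP1, osteopontin, at 2.54 and 57.3 CPM. In DCN-high cells APOA2 and SPP1 were at 6.82 and 36.4 CPM. CXCR4, a chemokine receptor, was at 7.46 CPM in members and 97.2 CPM in the others, and CD24, a surface glycoprotein, at 30.9 and 272 CPM. In DCN-high cells CXCR4 and CD24 were at 17.1 and 217 CPM. Against DCN-high cells, SULT1E1, an oestrogen sulfotransferase, was at 22.9 CPM in members and 252 CPM in DCN-high cells, and FABP7, a fatty acid binding protein, at 2.20 and 58.7 CPM. Cells with several endothelial genes are kept out of the members by rule and remain among the others. Proliferation genes did not differ 2-fold from the other cells (0 of 13) and 3 of 13 were lower than in DCN-high cells. TOP2A was at 98.2 CPM in members, 219 CPM in DCN-high cells and 140 CPM in the others.

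The rule picked mainly 1 population. Clustering of all kept cells on genes other than COL15A1 and DCN gave 21 clusters, and cluster 15 held 373 of the 434 uninduced members (85.9%). Its leading genes were COL15A1, DLK1, FMOD, PDPN, IGFL2 and EGFL6, the first listed for its level and not used to cluster. Another 139 uninduced cells of cluster 15 fell outside the rule. They were shallower, with a median of 6804 UMIs, and had COL15A1 at 197 CPM, DLK1 at 3748 CPM and COL1A1 at 4959 CPM, against 757, 7753 and 8384 CPM in the members of that cluster. ID1 was at 132 CPM in these cells and 40.6 CPM in the members, while LUM was at 3049 and 3143 CPM. The rule thus takes 72.9% of the uninduced cells of this cluster, which are deeper and, per UMI, higher in COL15A1, DLK1 and COL1A1 and lower in ID1.

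The 61 members in other clusters differed from those in cluster 15. Of these, 26.2% were scored as doublets, against 12.3% of the 373 in cluster 15, and 27 of the 61 had COL15A1 at the limit of 2 UMIs, against 30 of the 373. Their DLK1 was at 3142 CPM, FMOD at 97.4 CPM and MGP at 284 CPM, against 7753, 292 and 1564 CPM in cluster 15. ID1 was at 149 CPM and PRRX1 at 72.7 CPM, against 40.6 and 27.1 CPM in cluster 15 and 356 and 219 CPM in other uninduced cells. COL1A1 was at 6438 CPM against 8384 CPM in cluster 15. The part of doublets in these values was not tested. Without all cells scored as doublets, 69 of the 69 higher and 51 of the 51 lower genes of the wider comparison were still counted. That count takes all members together, so it says nothing of the 61 alone.

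**Figure D4:**
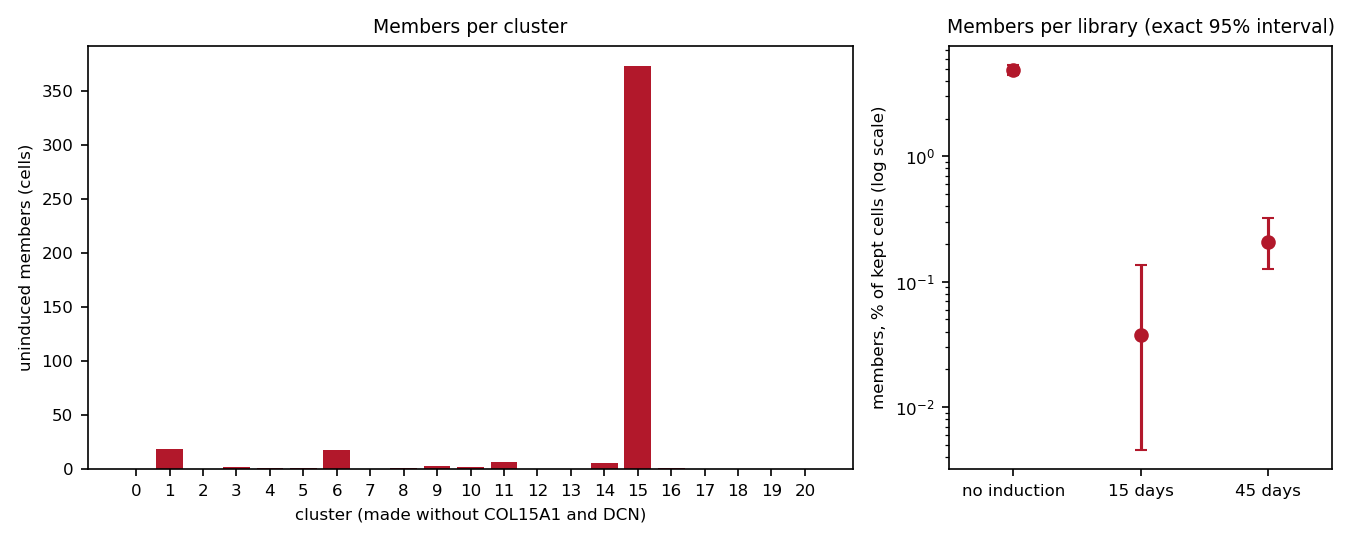
Left, bars give the number of uninduced members in each of 21 clusters made without COL15A1 and DCN; cluster 15 holds 373. Right, points give members as a percentage of kept cells on a log axis with exact 95% intervals: 4.90% with no induction, 0.0377% at 15 days and 0.207% at 45 days.

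Within the members, correlations between genes ranged from 0.28 to 0.72. Across the 434 uninduced members, which share 1 library and differ in depth, Pearson's r of log2 levels (50 CPM added) was 0.72 for COL1A1 and COL3A1, 0.61 for COL1A1 and SPARC and 0.54 for DCN and LUM. COL15A1 had r of 0.49 with COL1A1, 0.49 with FMOD, 0.41 with DLK1 and 0.28 with DCN, the lowest of the 9 pairs computed. The rule chose these cells by COL15A1 and DCN, so each r with either gene depends on that choice. Values that share depth and a cell's totals are not independent, so these are descriptions.

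Clustering the members alone gave 6 subclusters, given by number with their leading genes, which are a description of the clustering. Subcluster 0 (101 cells) was led by IGFL2, KRT19, TMEM91, RGS4, NDUFA4L2 and MSX2. KRT19 was at 1018 CPM there and in 96.0% of its cells, against 33.8 CPM in subcluster 2, so the keratin seen in members was not spread evenly. TWIST1 was at 42.8 CPM and ID1 at 5.52 CPM in subcluster 0. Also among its leading genes were ENO2 and NDRG1, picked here after their values were seen. They were at 58.0 and 76.0 CPM, and NDUFA4L2 at 691 CPM, each above the other 5 subclusters. Subcluster 4 (55 cells), led by CLU, MYL4, LEFTY2, SPOCK1, TNNT2 and CTSV, had COL15A1 at 1361 CPM, COL1A1 at 13018 CPM, DLK1 at 12467 CPM and FMOD at 772 CPM, each above the other 5 subclusters.

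Subcluster 2 (86 cells) was led by LRRN3, MTUS1, C3orf58, TMEM119, OGN and CYTL1. It had LUM at 5252 CPM, IGFBP3 at 2985 CPM, CXCL14, a chemokine, at 1911 CPM and EGFL6 at 675 CPM. Its PDPN and POSTN, at 134 and 607 CPM, lay below the 320 and 1899 CPM of subcluster 0. Subcluster 3 (55 cells) was led by MMP9, PLA2G2A, COL6A6, TNC, SCG2 and NR2F1-AS1. MMP9 was at 1132 CPM there and in 36.4% of its cells, and in at most 6.82% of the cells of each other subcluster, which places the high MMP9 of members in few cells. PLAT, tissue plasminogen activator, was at 838 CPM in subcluster 3 and between 75.7 and 130 CPM in the others.

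Subcluster 1 (93 cells) was led by the dividing-cell genes TOP2A, UBE2C, MKI67, CENPF, NUSAP1 and ASPM, with TOP2A at 343 CPM and in 51.6% of its cells. Its median was 16623 UMIs, and 35.5% of its cells were scored as doublets. Subcluster 5 (44 cells) was led by SPARCL1, SULT1E1, MMP11, IGF1, CPE and SEMA3D. It had ID3 at 684 CPM, TWIST1 at 492 CPM and PRRX1 at 127 CPM, each the highest of the subclusters. Its DLK1, at 2194 CPM, was the lowest. Of its 44 cells, 16 lay in cluster 15, and 40.9% were scored as doublets, and the part of doublets in its levels was not tested. In the other 4 subclusters 0.990% to 5.81% of cells were scored.

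**Figure D5:**
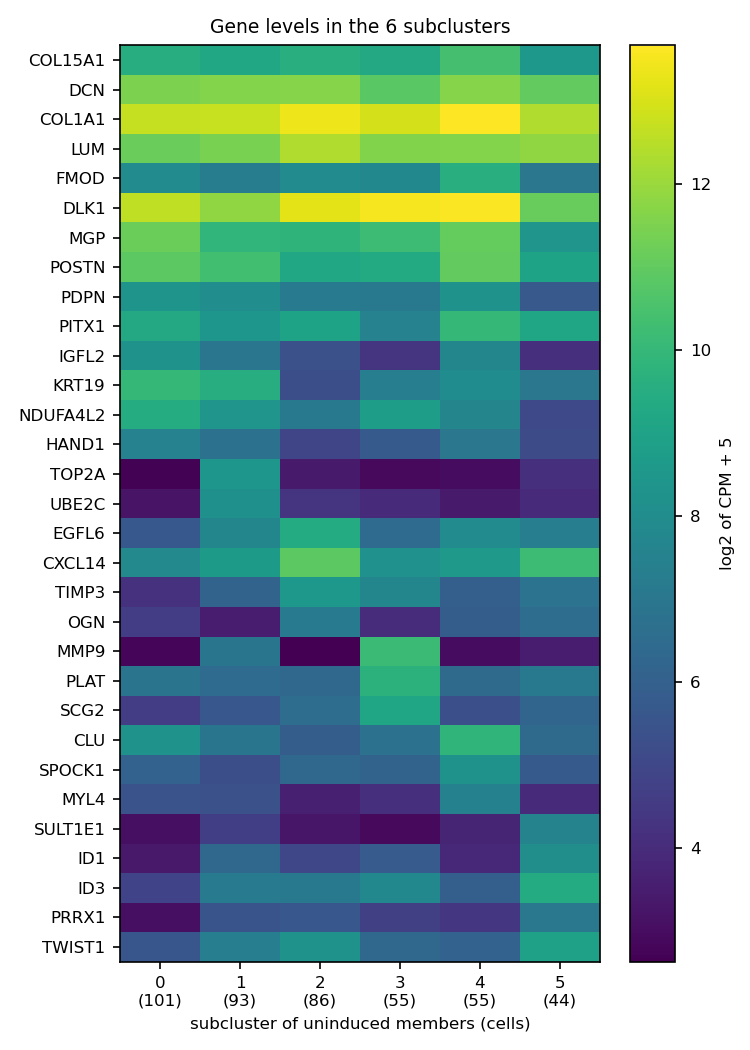
Colours give log2 of CPM with 5 CPM added for each gene (rows) in the 6 subclusters of uninduced members (columns, cell numbers in brackets). COL1A1 and DCN are high in each column, KRT19 runs from 33.8 CPM in subcluster 2 to 1018 CPM in subcluster 0, and MMP9 stands out in subcluster 3 at 1132 CPM.

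Members were rare in both induced libraries. They were 4.90% of kept cells with no induction (4.46 to 5.37), 0.0377% at 15 days (0.00457 to 0.136) and 0.207% at 45 days (0.127 to 0.320). With each cell thinned to 2000 UMIs and limits of 1 COL15A1 and 2 DCN UMIs, the shares were 3.77%, 0.0199% and 0.131%. Cluster 15, found without COL15A1 and DCN, held 5.78%, 0.0566% and 0.394% of kept cells, which is 512, 3 and 38 cells. DCN-high cells without COL15A1 were 774 of 8858, 198 of 5303 and 358 of 9644 kept cells. They too were fewer in the induced libraries, but by much less than the members, which were 434, 2 and 20 of the same cells. With 1 library per group, induction and the pool of organoids cannot be told apart.

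In the 20 members at 45 days, the 5 genes of the label were at lower levels than in uninduced members, and some other genes were higher. COL1A1 was at 3377 CPM (3166 to 3597) in members at 45 days and 8130 CPM in uninduced members, and its range over the 20 cells was 589 to 13380 CPM with a median of 2729 CPM. DCN was at 1350 CPM at 45 days and 2828 CPM uninduced, LUM at 1875 and 3173 CPM, and FMOD at 166 and 267 CPM. DLK1 was at 9086 CPM at 45 days and 7151 CPM uninduced, and all 20 cells had it. GLIPR1 was at 412 CPM at 45 days and 270 CPM uninduced (ratio 1.53, 1.26 to 1.84), IGFL2 at 194 and 140 CPM, and NDUFA4L2 at 885 and 367 CPM. COL15A1, which the rule sets, was at 560 CPM at 45 days and 726 CPM uninduced. EGFL6 was at 52.9 CPM (29.6 to 87.2) at 45 days and 219 CPM uninduced, and FGFR2 at 21.1 CPM (7.76 to 46.0) and 121 CPM. Of the 20 members 15 lay in cluster 15.

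Of the hypoxia and glycolysis list, 3 genes were picked for a closer description after their values were seen. VEGFA, the vessel growth factor, was at 430 CPM (357 to 513) in these members and 77.6 CPM in uninduced members, and 19 of the 20 had a UMI. In the remaining cells of the same libraries it was at 115 CPM at 45 days and 54.3 CPM uninduced. SLC2A1, the glucose transporter GLUT1, was at 641 CPM in members at 45 days and 116 CPM in uninduced members, with 100.3 and 102 CPM in the remaining cells. NDRG1 was at 296 CPM at 45 days and 40.2 CPM uninduced in members, and at 48.6 and 24.4 CPM in the remaining cells. The other genes of the list with a UMI at 45 days had ratios of members at 45 days over uninduced members from 0.507 for PFKFB3, which had 1 UMI at 45 days, to 6.73 for HK2, which had 11. LDHA was at 2347 and 973 CPM, GAPDH at 4229 and 2195 CPM, ALDOC had 1 UMI at 45 days and CA9 had 0, which allows up to 10.6 CPM. The median mitochondrial share of members was 1.76% at 45 days and 4.67% uninduced, and that of the remaining cells 3.01% and 4.63%; its part in these values was not tested.

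Some high sums at 45 days came from single cells. For CTGF 95.7% and for MMP9 74.8% of UMIs came from 1 member. For VEGFA and DLK1 the largest share of 1 member was 21.3% and 14.3%.

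The 2 members at 15 days had 10335 and 11869 UMIs and 2 COL15A1 UMIs each, so they sit at the limit of the rule. Neither lay in cluster 15, and neither had an FMOD or MGP UMI. One of them held 221 of their 228 DLK1 UMIs. At this depth 3 UMIs are 135 CPM, so little can be said of other genes.

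Whole-library levels were also taken with and without members. Members hold much of some genes, so leaving them out lowers the uninduced level of those genes by construction. It does not take out all of cluster 15: its 139 uninduced cells outside the rule remain, with DLK1 at 3748 CPM and COL1A1 at 4959 CPM. With all kept cells, DLK1 was at 285 CPM at 45 days and 1043 CPM uninduced, a ratio of 0.273 (0.269 to 0.278). Without members it was at 245 and 351 CPM, a ratio of 0.70 (0.685 to 0.715). At 15 days the ratio for DLK1 was 0.326 with members and 0.956 (0.935 to 0.976) without them. COL1A1 was at 436 CPM at 45 days and 1643 CPM uninduced with members (ratio 0.265), and at 423 and 908 CPM without them (0.465). For FMOD the direction turned at 15 days: 10.5 CPM against 31.7 CPM uninduced with members, and 10.5 CPM against 5.09 CPM without them. LUM moved less, with a ratio of 0.234 at 45 days with members and 0.292 without. Counted over all genes, the members changed little. At 15 days, 45 genes lay 4-fold or more above the uninduced level and 11 below it with members (1.45% and 0.355% of 3095), and 45 and 9 without them (1.46% and 0.291% of 3092). At 45 days it was 14 and 9 with members (0.478% and 0.307% of 2928), and 14 and 7 without them (0.478% and 0.239% of 2927). This comparison was added after the data were seen.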

How the data were processed

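The deposited values are counts: raw UMI counts per gene and barcode in 3 matrices, 1 per library, with no normalization by the authors. Per the submitters' processing notes they came from Cell Ranger 3.0.0 on GRCh38, and per the file headers the matrices were written by software 3.0.1; the gene annotation behind the counts is not given in the sources used here. Capture used the Chromium Single Cell 3′ v3 kit, per the labels. Of 33538 gene identifiers, 33484 were found in GENCODE 29, which gave the coordinates. Where 2 identifiers share a symbol, the one with more UMIs was used.

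Members and gene lists were chosen with earlier results of these data known. UMIs were summed over cells and divided by their total (CPM). Ratios are log2 with 5 CPM added; genes needed 50 CPM on 1 side (10 CPM for lists). Intervals are exact: Poisson for sums, conditional binomial for folds, Clopper-Pearson for shares, all 95%. No test was made, since each group is 1 library. Doublets were scored as the cells with most simulated doublets among 30 neighbours, at 0.8% per 1000 barcodes, and left in. Leiden clustering (scanpy 1.11.5, resolution 1.0, subclusters 0.5) used 2000 variable genes without COL15A1 and DCN, 30 components and 15 neighbours. The steps were checked on simulated data. Genes were named as the 15 highest and 10 lowest of each comparison, the 5 markers, list genes and the 6 leading genes of clusters; a few others are said to be picked after seeing values. Alternatives changed the member limits, cell filter, depth, scaling, pseudocount and low-value filter.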

Additional observations from a re-analysis of the deposited data

How the results depend on the processing

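With COL15A1 at 1 UMI or more, at 3 or more with DCN at 10 or more, and with thinned cells, members numbered 4, 0 and 1 at 15 days and 31, 11 and 12 at 45 days, where the rule gave 2 and 20. Uninduced members ranged from 321 to 532. Of genes 4-fold lower than in other uninduced cells, 84 were counted with a 25 CPM filter, 19 with 100 CPM, 100 with no filter and 89 with reference cells weighted to the depth of members, against 51. Of the 69 higher and 51 lower genes, 46 and 33 were shared under that weighting. Against DCN-high cells the lower genes numbered 288, 73 and 563 with 25 CPM, 100 CPM and no filter, against 148, and the higher ones 367 with no filter, against 189. The filter changes how many genes are counted by its own construction; the cause of the change under depth weighting was not tested. Scaling by the median of ratios took out median log2 shifts of -0.076 and -0.060. Directions turned in 1 setting, the added one that leaves out reference cells with 3 or more epithelial markers, a choice that partly uses these genes. Members with as many markers were kept in it. Against other cells the log2 ratios were then 0.72 for CDH1, 0.60 for CLDN4, 0.34 for EPCAM, 1.54 for GABRP, 0.45 for KRT17, 0.11 for KRT5, 0.0011 for MLN, 0.45 for SLN and 0.97 for WNT6. Against DCN-high cells they were 0.83 for CDH1, 0.84 for CLDN4, 0.27 for CXCL14, 0.61 for EPCAM, 0.47 for ERBB3, 1.52 for GABRP, 0.71 for KRT15, 0.92 for KRT17, 0.073 for KRT5, 0.52 for SLN and 1.09 for WNT6. For the genes the text leans on, the log2 ratio over DCN-high cells ranged from 3.22 to 3.92 for DLK1, 2.33 to 2.63 for COL1A1, -3.49 to -2.39 for ID1 and -2.58 to -1.83 for PRRX1 across the settings. No paired analysis was possible because each group has 1 library, so that only 1 replicate number is shared. There are no replicates, so intervals leave out the spread between organoids and captures, and the 2 and 20 induced members allow no gene counts.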

Other observations

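COL15A1 was also present outside the members. In uninduced cells with 3 or more of the 7 endothelial genes, 11.8% had a COL15A1 UMI after thinning to 2000 UMIs (9.15 to 15.0, 507 cells), against 0.952% of cells with 3 or more macrophage markers (0.0241 to 5.19, 105 cells) and 5.03% of cells with 4 or more epithelial markers (3.47 to 7.03, 636 cells). Unthinned, the shares were 24.1%, 3.48% and 10.7%, at median depths of 7739.5, 5001 and 8873.5 UMIs. FMOD had a UMI in 0.986% of those endothelial cells after thinning and DCN in 11.6%, against 12.4% of the macrophage-marker cells for DCN. Among cells that pass the endothelial condition, those with 2 or more COL15A1 UMIs and 3 or fewer DCN UMIs numbered 42 with no induction, 10 at 15 days and 22 at 45 days, so at 15 days they outnumbered the 2 members. Of all COL15A1 UMIs in kept cells, members held 81.6% with no induction, 1.51% at 15 days and 35.8% at 45 days.

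Of the muscle list, TNNI1, a slow skeletal troponin, was at 57.5 CPM in members, 14.6 CPM in DCN-high cells and 15.0 CPM in other uninduced cells, and TNNT2, the cardiac troponin T, at 19.0 CPM against 6.50 and 6.42 CPM. MYOD1, MYOG and PAX7 were at 0 CPM in all 3 sets (3 UMIs would be 0.509 CPM in members). TNNT2 was at 72.5 CPM in subcluster 4 and between 1.16 and 22.1 CPM in the other 5.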
